A study of Mus musculus with 8 samples.

Results

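R-loop peaks at the 3′ ends of genes were taken from DNA-RNA immunoprecipitation sequencing (DRIP-seq) of mouse muscle stem cells (MuSCs). A peak was included when it lay on an autosome, had a mean score over 30 across the 6 S9.6 libraries, was assigned to a protein-coding gene of 10 kb or more, had its centre within 3 kb of the gene's annotated 3′ end on either side, and was over 1 kb from the transcription start site (TSS). The rule found 1669 peaks at 1635 genes among 28265 union peaks, of which 25815 autosomal peaks passed the score filter and were tested. A further 52 peaks met the positional rule but not the score filter. The cells were MACS-purified, cultured MuSCs of control mice (Ctrl, Pax7CreERT/Suv4-20h1WT) and of mutants lacking Kmt5b, which encodes the histone H4 lysine methyltransferase SUV420H1 (Kmt5b sKO, Pax7CreERT/Suv4-20h1KO), with 3 S9.6 libraries per genotype. Both genotypes carry the tamoxifen-inducible Cre of the Pax7 locus, so recombination is aimed at Pax7-expressing cells, and tamoxifen was given to mice 8 to 12 weeks old on a C57BL/6 background. The score of a peak is the coverage summed over it, scaled by the authors to Drosophila spike-in reads and rounded, so it rises with peak length. In such bulk libraries, less R-loop per cell and fewer cells with the R-loop cannot be told apart.

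An R-loop is an RNA-DNA hybrid with a displaced DNA strand, and the S9.6 antibody binds the hybrid. At the end of a gene, RNA polymerase II transcribes past the polyadenylation signal before it is released. R-loops that form there have been linked to polymerase pausing and to termination, and helicases such as senataxin, together with the exonuclease XRN2, act in that region. Where the ends of genes on opposite strands face each other, transcription from both sides can enter the same stretch of DNA.

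The annotated end is the point from which these peaks were chosen, whether or not the peak covers it. Of the largest changes, 3 increases (Lamb3, Ncoa3, Aldh8a1) and 4 decreases (Dtx4, E2f2, Lrrn1, Clk4) are shown as examples, chosen by the size of the change. The last 30 bases of each gene follow, on the coding strand of GRCm38, with the polyadenylation signal AATAAA or its variant ATTAAA in capitals.
Lamb3, chr1:193343849-193343878, plus strand: taggagcctggaagctcaagaagaaaatga
Ncoa3, chr2:166073213-166073242, plus strand: cttgtaAATAAAggtttctatttaagcctc
Aldh8a1, chr10:21396556-21396585, plus strand: agaagcAATAAAttgttcagcagtatggca
Dtx4, chr19:12466338-12466367, minus strand: tacgtgcagaacAATAAActgcaaatgaac
E2f2, chr4:136196028-136196057, plus strand: tgggcATTAAAtaatggcggctctggtaaa
Lrrn1, chr6:107570185-107570214, plus strand: AATAAAttagtttgttctgattttttagaa
Clk4, chr11:51281737-51281766, plus strand: tttttcctcaagtaaaaggaaatcttgacc
The signal lay within these bases in 5 of the 7 genes and was not found in this window of Lamb3 and Clk4. The first 150 bases past the end follow for the 6 genes with no annotated exon there, with runs of 4 or more G in capitals.
Lamb3, chr1:193343879-193344028, plus strand: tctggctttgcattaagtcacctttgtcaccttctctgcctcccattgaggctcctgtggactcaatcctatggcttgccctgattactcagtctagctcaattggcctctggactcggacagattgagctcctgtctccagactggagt
Aldh8a1, chr10:21396586-21396735, plus strand: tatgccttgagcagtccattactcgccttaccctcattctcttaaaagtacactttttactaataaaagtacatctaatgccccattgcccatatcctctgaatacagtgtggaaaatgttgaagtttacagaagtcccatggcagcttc
Dtx4, chr19:12466188-12466337, minus strand: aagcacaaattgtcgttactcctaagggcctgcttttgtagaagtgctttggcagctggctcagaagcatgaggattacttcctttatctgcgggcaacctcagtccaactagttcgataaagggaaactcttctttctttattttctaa
E2f2, chr4:136196058-136196207, plus strand: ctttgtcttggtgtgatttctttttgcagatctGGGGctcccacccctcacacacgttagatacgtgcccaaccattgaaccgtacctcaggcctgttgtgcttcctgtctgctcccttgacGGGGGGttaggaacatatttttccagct
Lrrn1, chr6:107570215-107570364, plus strand: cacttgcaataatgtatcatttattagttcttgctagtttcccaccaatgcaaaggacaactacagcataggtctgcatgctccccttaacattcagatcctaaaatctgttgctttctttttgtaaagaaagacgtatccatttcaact
Clk4, chr11:51281767-51281916, plus strand: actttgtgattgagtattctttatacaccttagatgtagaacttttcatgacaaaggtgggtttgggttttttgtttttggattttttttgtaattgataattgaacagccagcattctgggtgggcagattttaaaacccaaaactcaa
Only E2f2 among these 6 held a G run in this stretch, and it held 2. The peaks of Aldh8a1, E2f2 and Lrrn1 stopped before the annotated end, so neither printed window of these genes lay in the peak. The peaks of Lamb3, Ncoa3, Dtx4 and Clk4 covered the end. Those of Dtx4 and Clk4 ran only 138 and 33 bp past it, so part of their 150 bases lay outside the peak.

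Over all 1634 distinct gene ends with such a peak, AATAAA was present in the last 50 bases of 64.3%, against 61.1% of the 11886 other ends of autosomal protein-coding genes of the same minimum length. ATTAAA without AATAAA was present in 14.0% and 14.2%. The motif GGGG was present on the coding strand in the 300 bases past the end in 61.4% of ends with a peak and 55.1% of other ends, and on the template strand in 52.8% and 49.9%. The median GC skew on the coding strand, the excess of G over C, was 0.0294 past the ends with a peak and 0.0091 past the others. Median gene length was 32.6 and 33.6 kb. Gene arrangement separated the groups more than these motifs did. A protein-coding gene on the opposite strand ended within 5 kb at 32.9% of ends with a peak and at 20.7% of the others. The others are ends to which no such peak was assigned, and are not all free of peaks. Each peak was assigned to a single gene, and 319 peaks covered the ends of both facing genes. These shares describe sequence and position only.

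Most of these R-loops covered the annotated end. The peak spanned it in 1207 of 1669 cases (72.3%), and in the other 462 the peak lay wholly before it. None lay wholly past the end, since each peak was assigned to a gene that it overlapped. The centre was before the end in 1259 peaks and past it in 410, and the median peak was centred 1.09 kb before it. Among spanning peaks, the part past the end had a median of 2116 bp (quartiles 1075 and 3766 bp), and 23 peaks reached over 10 kb past the end. The median peak had 1003 bp in the last exon and 31.8% of its length in exons of its gene. The annotated end was the same in GENCODE vM21 for 1660 peaks. A different protein-coding gene overlapped 425 peaks (25.5%), and the scores were not resolved by strand, so an R-loop there cannot be given to either gene.

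**Figure D1:**
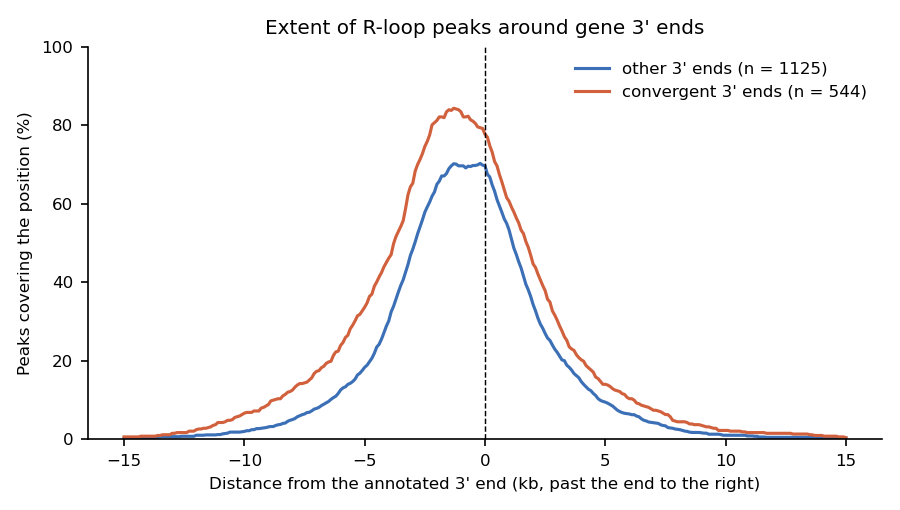
Share of 3′ end peaks that cover each position around the annotated gene end, in percent, against the distance in kb (positive values are past the end), for 544 convergent and 1125 other 3′ ends. At the end itself, 77.8% of convergent and 69.7% of other peaks covered the position, and at 5 kb past the end the shares were 14.0% and 9.42%.

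The densest peaks belonged to genes with widely different functions. Zyx, which encodes the focal adhesion protein zyxin, had 102.3 score units per kb on average over its 15600 bp peak. Its scores were 1502, 1635 and 1270 in Ctrl and 1589, 1751 and 1828 in Kmt5b sKO, and the groups overlapped. The next were Ugt1a10, a glucuronosyltransferase gene that shares its last exons with other Ugt1a genes (98.9 per kb), Tmem267 (89.5), Akirin2 (79.7), the hyaluronan synthase gene Has3 (78.7) and Eef1a1, a translation elongation factor gene (68.6). Of these 6, Ugt1a10 and Tmem267 were called higher in Kmt5b sKO, Ugt1a10 from 102, 120 and 129 to 254, 259 and 204. Tmem267 had 69, 58 and 77 in Ctrl and 91, 135 and 107 in Kmt5b sKO, and its call was lost without Ctrl replicate 2 or Kmt5b sKO replicate 2. At the bounds of the rule, Cbx1 (mean score 30.2) and Prdx1 (30.3) lay just inside and Lman2 (29.7) and Noct (29.5) just outside. For distance, E2f1 and Utp20 (both 2992.5 bp from centre to end) lay just inside, and peaks of Rnps1 (3001.5 bp) and Oxnad1 (3002.5 bp) just outside.

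Over all union peaks, the deposited scores summed to between 3893768 and 4729631 in Ctrl libraries and between 4699599 and 4930261 in Kmt5b sKO. Ctrl replicate 2 was the highest of the Ctrl libraries. Of 10 genes that mark MuSCs and myoblasts, 7 had a tested peak, among them Pax7, Myod1 and Sdc4. No tested peak was assigned to any of 6 fibro-adipogenic, 6 blood or 4 Schwann cell markers, and 2 of 6 endothelial markers (Pecam1, Tek) had 4 tested peaks. The endothelial peaks summed to 153 to 177 in Ctrl and 270 to 308 in Kmt5b sKO, and the MuSC peaks to 10357 to 12278 and 11917 to 12875. R-loop signal is not expression, and the part of other cells in the results was not tested. Kmt5b had 1 tested peak, with scores of 412, 658 and 420 in Ctrl and 440, 449 and 484 in Kmt5b sKO, which does not check the deletion.

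The fitted R-loop score was higher in Kmt5b sKO at 1104 of the 1669 3′ end peaks (66.1%) and at 78.7% of all tested peaks, and most of these differences did not pass the test. In Kmt5b sKO, 205 of the 1669 peaks (12.3%) were called higher and 19 (1.14%) lower, where a call needed a limma adjusted p below 0.1 together with more than a 1.5-fold change. Of all tested peaks, 32.9% were called higher and 0.883% lower. The share called higher was thus below the share over all peaks, and the share called lower was near it. The median log2 fold change was 0.15 (quartiles -0.07 and 0.38), beside 0.35 over all tested peaks. The Kmt5b sKO libraries all lay above the Ctrl libraries at 25.3% of the 3′ end peaks and at 41.5% of all tested peaks, and all below them at 6.17% and 3.81%. Only 109 of the 205 higher calls and 3 of the 19 lower calls were kept whichever library was left out.

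The calls depended on the scaling. The median log2 score of the peaks was 6.71, 6.91 and 6.73 in Ctrl and 6.94, 7.03 and 6.98 in Kmt5b sKO, so that every Kmt5b sKO library was above every Ctrl library. When all libraries were brought to 1 total, 102 peaks were higher and 70 lower, against 21.6% and 3.12% of all tested peaks. The log2 fold change of 377 peaks (22.6%) then changed sign. Centred on the median peak, which moved the median change of all tested peaks from 0.35 to -0.11, 37 were higher and 316 lower, against 10.3% and 11.9%, and 777 peaks (46.6%) changed sign. Quantile normalization gave 42 higher and 189 lower, against 8.02% and 7.7%, with 541 sign changes (32.4%). Under each of these scalings the share of 3′ ends called higher was below, and the share called lower above, that of all tested peaks. All 19 lower calls on the deposited scale were also lower under the 3 other scalings. Those scalings moved the median log2 fold change of the 3′ end peaks from 0.15 to -0.06 (same total), -0.31 (centring) and -0.15 (quantile). Lower peaks thus tended to become lower still, so keeping these calls is no separate support for them.

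**Figure D2:**
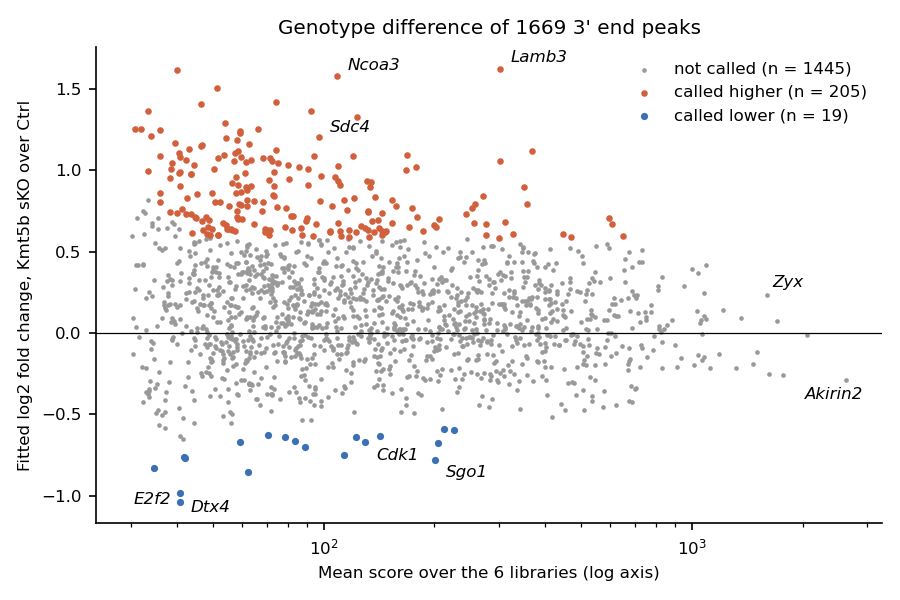
Fitted log2 fold change of Kmt5b sKO over Ctrl against the mean score over the 6 libraries (log axis), 1 point for each of the 1669 3′ end peaks. The 205 peaks called higher lie mostly at low scores, the 19 called lower reach -1.04 on the log2 scale (Dtx4), and the peaks with the highest scores, such as Akirin2 and Zyx, were not called.

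The largest increase was at Lamb3, which encodes the β3 chain of laminin-332, a basement membrane protein. Its peak (chr1:193338000-193345799) had scores of 194, 145 and 109 in Ctrl and 394, 519 and 446 in Kmt5b sKO. The groups were far apart, by 1.62 on the log2 scale (SE 0.16, adjusted p = 7.1e-22 by limma). This SE and p borrow the variance of other peaks of like score. With the variance of the peak alone, Lamb3 had an adjusted p of 0.047 by the linear fit. The peak ran 1921 bp past the end, where Camk1g on the opposite strand ends 2468 bp away, and the single internal peak of Lamb3 was also called higher, by 1.05 on the log2 scale. Ncoa3, a nuclear receptor coactivator gene, rose from 58, 52 and 51 to 185, 136 and 170 (log2 fold change 1.58, SE 0.20, adjusted p = 3.6e-12 by limma). With the variance of its peak alone, Ncoa3 had an adjusted p of 0.03 by the linear fit. Its end lies 153 bp from that of Sulf2 on the opposite strand, and both internal peaks of Ncoa3 were higher as well.

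Aldh8a1, an aldehyde dehydrogenase gene, had 26, 25 and 27 in Ctrl and 83, 63 and 83 in Kmt5b sKO, with the smallest Ctrl spread among the 7 increases named here. Frmd8, which encodes a partner of the iRhom proteins, had 35, 37 and 47 in Ctrl and 98, 134 and 93 in Kmt5b sKO. Their libraries did not overlap between genotypes, which was a condition for naming the largest increases.

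Further large increases were at Prol1, Cpt1c and Tgif2, with log2 fold changes of 1.41, 1.36 and 1.36. Prol1 had scores of 16, 32 and 28 in Ctrl and 53, 88 and 62 in Kmt5b sKO. Cpt1c, the brain-type carnitine palmitoyltransferase gene, had 36, 52 and 66 in Ctrl and 100, 176 and 124 in Kmt5b sKO. Tgif2, the gene of a homeodomain repressor in TGF-β signalling, had 15, 28 and 13 in Ctrl and 36, 48 and 60 in Kmt5b sKO. These 7 increases remained called without each library in turn and after centring on the median peak, and Tgif2 alone lost its call after quantile normalization (log2 fold change 0.78, adjusted p = 0.17 by limma). Peaks called higher were short, with a median of 1800 bp beside 4000 bp for peaks not called, and 27.4% of the median peak was repeat sequence, beside 18.5%.

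The decreases were fewer and smaller. Dtx4, a Deltex E3 ubiquitin ligase gene, had scores of 40, 80 and 47 in Ctrl and 27, 32 and 19 in Kmt5b sKO, a change of -1.04 on the log2 scale (SE 0.34, adjusted p = 0.01 by limma). E2f2, which encodes a transcription factor of the G1/S transition, had 39, 78 and 48 in Ctrl and 22, 28 and 29 in Kmt5b sKO (log2 fold change -0.98, SE 0.34, adjusted p = 0.014 by limma). In both genes Ctrl replicate 2 was the highest library, and without it neither was called (log2 fold change -0.75 for Dtx4 and -0.71 for E2f2). Dtx4 fell along the gene, with 3 of its 4 internal peaks called lower, and the single internal peak of E2f2 was called higher (0.70 on the log2 scale).

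Sgo1, the gene of shugoshin, which protects centromeric cohesin, gave the smallest adjusted p among the decreases. Its 8800 bp peak had scores of 227, 291 and 245 in Ctrl and 143, 172 and 129 in Kmt5b sKO, and no library of the genotypes overlapped (log2 fold change -0.78, SE 0.17, adjusted p = 5.5e-05 by limma). The call was kept whichever library was left out. The same held for Cdk1, the mitotic cyclin-dependent kinase gene, with 154, 169 and 155 in Ctrl and 112, 92 and 97 in Kmt5b sKO, and for Lrrn1, a leucine-rich repeat membrane protein gene, with 66, 98 and 76 against 34, 59 and 40. These 3 were the only decreases kept without each library. With the variance of each peak alone, 5 of the 19 lower calls were kept. Sgo1 and Cdk1 were among those, and Lrrn1, Dtx4 and E2f2 were not. Bub1b, which encodes the spindle checkpoint kinase BUBR1, had 70, 85 and 64 in Ctrl and 55, 39 and 43 in Kmt5b sKO, and lost its call without Ctrl replicate 2 or Kmt5b sKO replicate 2.

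Snx1, a sorting nexin gene, had 116, 154 and 157 in Ctrl and 64, 105 and 87 in Kmt5b sKO. Copg2, which encodes a COPI coat subunit and ends 911 bp from the imprinted gene Mest, had 242, 294 and 219 in Ctrl and 180, 154 and 137 in Kmt5b sKO. Clk4, a kinase gene of splicing factors, had 41, 58 and 34 in Ctrl and 18, 33 and 23 in Kmt5b sKO. The Clk4 groups were separated by 1 score unit, and its call was lost without Kmt5b sKO replicate 1 or without any of the 3 Ctrl libraries.

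**Figure D3:**
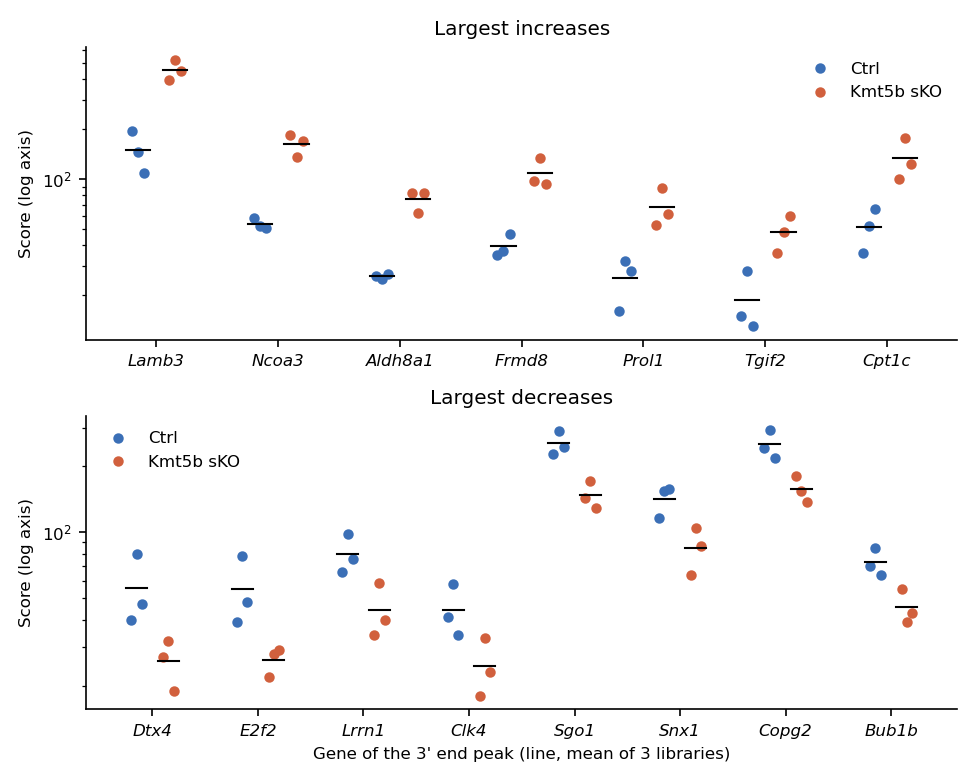
Scores of 7 of the largest increases and of the 8 largest decreases at 3′ ends among called peaks whose libraries did not overlap between genotypes (log axis), 1 point for each library and a line at the mean of 3 libraries. The libraries of the genotypes do not overlap for any of the 15 peaks, as required for their choice, and the smallest gap is at Clk4.

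The 11 other decreases, from -0.59 to -0.77 on the log2 scale, were at Uspl1, Epb41l3, Cgnl1, Cdk1, Itgb3bp, Tyms, Kdm1b, Alg6, Smarce1, Synj2bp and Far1. They are named because the 19 decreases are few, a choice made with their values seen. Itgb3bp, the gene of the centromere protein CENP-R, and Alg6, a glycosyltransferase gene of N-glycan assembly, end 1942 bp from each other on opposite strands, and their peaks are 800 bp apart, so they are neighbours and not separate observations. Itgb3bp had 104, 111 and 91 in Ctrl and 50, 87 and 60 in Kmt5b sKO. Alg6 had 175, 196 and 146 in Ctrl and 124, 134 and 80 in Kmt5b sKO. Tyms encodes thymidylate synthase, Smarce1 a BAF chromatin remodeller subunit and Kdm1b a histone H3 lysine demethylase. Far1 encodes a fatty acyl-CoA reductase of ether lipid synthesis and Cgnl1 a cell junction protein. The libraries of the genotypes overlapped at Uspl1, Epb41l3 and Cgnl1.

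Of the 204 genes with an increase, 125 had internal peaks, and in 74 of these (59.2%) an internal peak was also called higher, beside 40.4% of all genes with both kinds of peak. Of their 391 internal peaks 33.8% were called higher, beside 17.2% of the 4290 internal peaks of all genes with a 3′ end peak. Of the 19 genes with a decrease, 16 had internal peaks, 50 in all, of which 8 (16.0%) were called higher and 3 (6.0%) lower, beside 17.2% and 0.956% of the internal peaks of all these genes, and those 3 were all in Dtx4. Across the 1199 genes with both kinds of peak, Spearman's rho between the log2 fold change at the 3′ end and the mean over internal peaks was 0.36. This is a correlation across genes measured in the same 6 libraries, and genes are not independent replicates.

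Relative to peaks inside genes, 3′ ends lost part of their lead in Kmt5b sKO. Internal peaks were the 17945 tested peaks of protein-coding genes of 10 kb or more that were centred over 3 kb before the end and lay over 1 kb from the TSS. The median log2 score of 3′ end peaks exceeded that of internal peaks by 0.61, 0.53 and 0.58 in the Ctrl libraries and by 0.42, 0.45 and 0.42 in the Kmt5b sKO libraries. The genotypes did not overlap, and the difference between them was -0.14. After quantile normalization it was -0.03 and the genotypes overlapped. Of internal peaks 23.5% were called higher and 1.08% lower. Within the same 1199 genes, the lead was 0.45, 0.43 and 0.42 in Ctrl and 0.28, 0.29 and 0.27 in Kmt5b sKO, a difference of -0.15, and in 804 genes (67.1%) the 3′ end changed less upwards than the internal peaks. Peak length was not matched within these genes. Over the 143 TSS peaks of such genes, of which 51.0% were called higher, the lead was 1.29, 1.35 and 1.34 in Ctrl and 0.83, 0.90 and 0.91 in Kmt5b sKO. TSS peaks were shorter, with a median of 1600 bp beside 3600 bp, and were not compared within length classes. Mean library medians per kb were 30.8 at 3′ ends and 28.8 at TSS peaks in Ctrl. In Kmt5b sKO they were 34.8 and 45.1. The 3′ end peaks held 7.71% to 7.84% of the summed scores of all peaks in Ctrl and 7.27% to 7.32% in Kmt5b sKO.

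**Figure D4:**
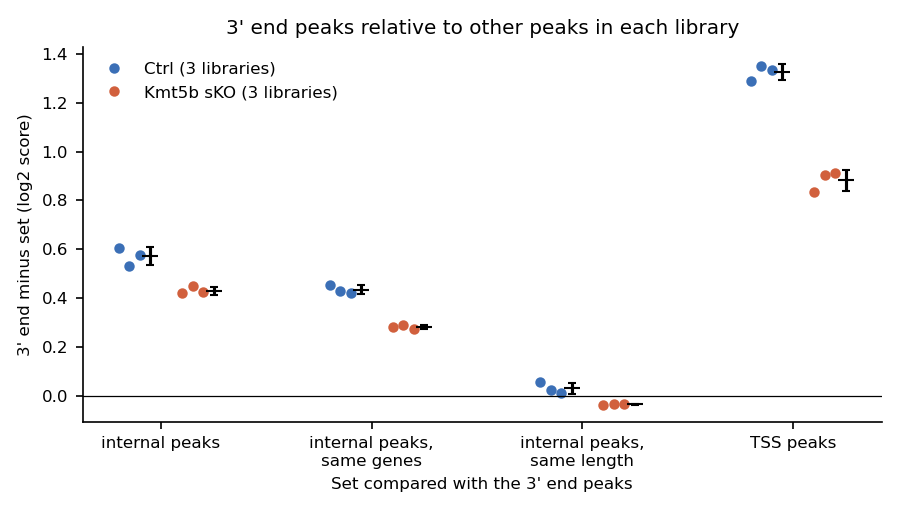
Difference in log2 score between 3′ end peaks and 4 comparison sets in each library, with 3 Ctrl and 3 Kmt5b sKO points per set and the mean ± SD beside them. The Kmt5b sKO libraries lie below the Ctrl libraries in every set, with means of 1.32 and 0.88 for Ctrl and Kmt5b sKO against TSS peaks, and of 0.03 and -0.03 against internal peaks of the same length. Only the internal peaks of the same length were matched for length, and the TSS peaks were shorter.

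Peak length moved with these differences. The 3′ end peaks were longer than internal peaks, with medians of 3600 and 2800 bp, and short peaks changed most in both sets. When the peaks were divided into 5 length classes, the difference averaged over the classes was 0.056, 0.024 and 0.013 in Ctrl and -0.036, -0.032 and -0.035 in Kmt5b sKO. The genotypes still did not overlap, but the shift was -0.065, smaller than the -0.14 without length classes. By class, from shortest to longest, the shift was -0.19, -0.11, -0.04, -0.03 and 0.03. In the shortest class, of 600 to 2000 bp, 27.5% of 404 3′ end peaks and 44.7% of 6459 internal peaks were called higher. In the longest, of 8600 bp or more, 1.82% of 329 and 2.56% of 2738 were. The repeat content also differed in the shortest class, with medians of 24.1% at 3′ ends and 35.2% at internal peaks, and its part in the result was not tested.

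**Figure D5:**
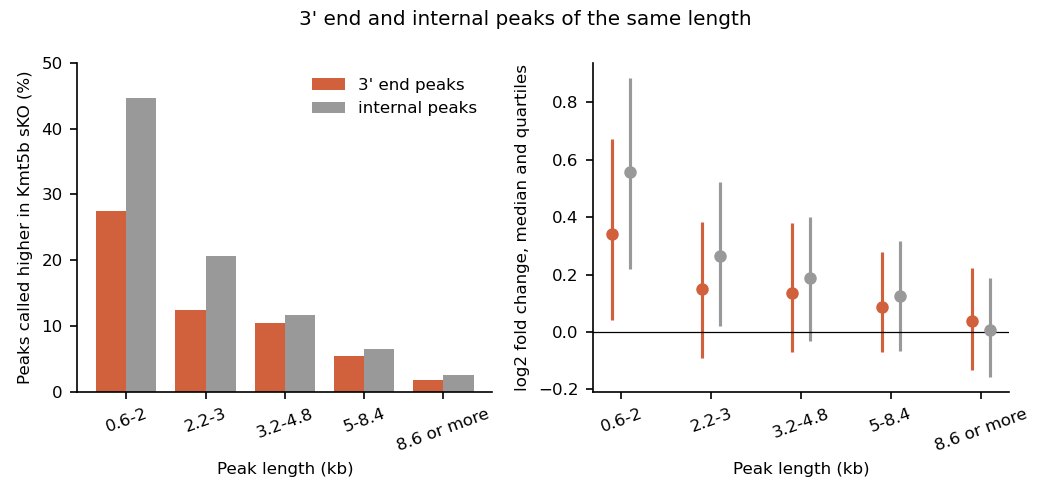
Left, share of 3′ end and internal peaks called higher in Kmt5b sKO, in percent, by peak length in kb. Right, median log2 fold change with quartiles for the same classes. The gap between the sets is widest in the shortest class, at 0.34 against 0.56, and in the longest the medians are 0.04 and 0.01.

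The centre's side of the gene end did not separate the genotypes. Peaks centred past the end were called higher in 9.02% of 410 cases and peaks centred before it in 13.3% of 1259. The median log2 score of the former minus the latter was 0.041, 0.024 and -0.007 in Ctrl and 0.006, 0.005 and -0.040 in Kmt5b sKO, and the genotypes overlapped. By contrast, 101 of the 1207 peaks that covered the end (8.37%) were called higher and 104 of the 462 that stopped before it (22.5%). The median lengths of these were 5200 and 2000 bp.

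Convergent ends carried longer R-loop peaks. At the 544 peaks whose gene ended within 5 kb of a protein-coding gene on the opposite strand, the median length was 4800 bp, beside 3400 bp at the other 1125, and the median GC content was 48.3% beside 44.9%. In 319 of them the peak covered the ends of both genes. The highest scores among these were at Akirin2, facing Orc3, with 2722, 3357 and 2624 in Ctrl and 2322, 2427 and 2324 in Kmt5b sKO, which is a log2 fold change of -0.29 that did not reach the fold limit although no libraries overlapped. Atxn2, an RNA-binding protein gene that faces Sh2b3, had 1931, 2485 and 1816 in Ctrl and 1981, 2100 and 2044 in Kmt5b sKO. Has3, facing Chtf8, had 1671, 1840 and 1464 in Ctrl and 1735, 1664 and 1822 in Kmt5b sKO, and both of these pairs of groups overlapped. Of convergent peaks 9.19% were called higher, and of the others 13.8%. The lead of convergent over other peaks was 0.67, 0.71 and 0.68 in Ctrl and 0.58, 0.52 and 0.61 in Kmt5b sKO, a shift of -0.12. Within length classes the shift was -0.01, and the genotypes overlapped there as they did after quantile normalization.

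The counts in the gene lists are small and are to be read against the 12.3% of all 3′ end peaks called higher. Of 33 genes of the cleavage, polyadenylation and termination machinery 6 had a 3′ end peak, none was called in either direction, and their median log2 fold change was 0.20. Ppp1r10, the gene of a phosphatase 1 subunit that acts at termination, had 86, 115 and 87 in Ctrl and 128, 145 and 141 in Kmt5b sKO, under the fold limit at 0.53. Cstf1, a cleavage stimulation factor subunit gene, had 99, 108 and 87 in Ctrl and 113, 143 and 120 in Kmt5b sKO, with a log2 fold change of 0.35. Of 27 genes that remove or prevent R-loops 4 had a 3′ end peak, and 1 was higher. This was Brca1, a homologous recombination gene, with 47, 38 and 46 in Ctrl and 103, 86 and 90 in Kmt5b sKO (log2 fold change 1.07, SE 0.24, adjusted p = 1.1e-04 by limma). The call was lost after quantile normalization (log2 fold change 0.57). The Brca1 peak stopped 1836 bp before the end and 57.7% of it was repeat sequence. Thoc1, a subunit gene of the THO complex, had 454, 607 and 477 in Ctrl and 371, 413 and 451 in Kmt5b sKO, with a log2 fold change of -0.31.

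Of 33 genes of myogenic transcription factors and muscle stem cells, 14 had a 3′ end peak and 2 (14.3%) were higher, near the 12.3% of all 3′ end peaks, with a median of 0.22. After centring on the median peak 1 was higher and 4 were lower, beside 2.22% and 18.9% of all 3′ end peaks. Sdc4, a syndecan of satellite cells, rose from 67, 41 and 69 to 129, 116 and 161 (log2 fold change 1.21, SE 0.21, adjusted p = 4.9e-07 by limma). Ncam1, an adhesion molecule gene, rose from 85, 116 and 110 to 172, 151 and 157, and none of its 12 internal peaks was called. Its call was lost without Ctrl replicate 1 or without Kmt5b sKO replicate 1, and under each of the 3 other scalings. Of 38 genes of the actin cytoskeleton and adhesion, 16 had a 3′ end peak, of which 3 (18.8%) were higher and none lower, beside 12.3% and 1.14% of all 3′ end peaks, with a median of 0.20. The integrin αV gene Itgav had 78, 115 and 104 in Ctrl and 166, 164 and 165 in Kmt5b sKO, and Pdlim7, a PDZ and LIM domain gene, had 112, 126 and 108 against 178, 186 and 170. Both rose by the test, and the call of Pdlim7 was lost without Ctrl replicate 3. Under each of the 3 other scalings none of these 16 was higher, and after centring on the median peak 3 were lower. Of all 3′ end peaks, 6.11% were higher with the same total, 2.22% after centring and 2.52% after quantile normalization. After centring 18.9% of all 3′ end peaks were lower, so these counts are near the shares of all 3′ end peaks.

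Of 43 genes of the contractile apparatus and excitation-contraction coupling, 4 (9.3%) had a 3′ end peak and none was called. Of all ends of autosomal protein-coding genes of 10 kb or more, 12.1% had such a peak assigned. The list was not limited to genes of this kind, so its share cannot be compared with that one. Cap2, an actin regulator gene, had 60, 56 and 50 in Ctrl and 80, 75 and 75 in Kmt5b sKO, with a log2 fold change of 0.47. Myom3, a myomesin gene of the sarcomere M-band, had 92, 188 and 145 against 132, 141 and 125. Of 48 extracellular matrix genes, in a list not so limited either, 3 (6.25%) had a 3′ end peak and none was called. The laminin gene Lamb3, whose peak was called higher, was not in this list. The laminin genes Lamb2 and Lamc1 had log2 fold changes of 0.41 and 0.34, and Lamb2 scored 554, 655 and 572 in Ctrl and 846, 767 and 744 in Kmt5b sKO.

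Because E2f2, Sgo1, Bub1b, Cdk1 and Itgb3bp were among the decreases, a list of 86 cell cycle and mitosis genes was written after their values were seen, so its counts are a description and carry no test. Of these genes 75 had a tested peak and 23 had a 3′ end peak, of which 5 were lower and 2 higher. The 5 lower are the genes that prompted the list, so that count was fixed when it was written. After centring on the median peak 12 were lower and none higher, and after quantile normalization 11 were lower and none higher. Of all 3′ end peaks, 18.9% were lower and 2.22% higher after centring, and 11.3% and 2.52% after quantile normalization. The median log2 fold change of the 23 was -0.28, beside 0.15 over all 3′ end peaks. The 5 genes that prompted the list are part of the 12, of the 11 and of this median. These values are therefore no separate support. The increases were at Ccnd2, the cyclin D2 gene, with a log2 fold change of 0.73, and at Knl1, a kinetochore gene. Knl1 had 54, 40 and 52 in Ctrl and 105, 115 and 84 in Kmt5b sKO, and its call was lost with median centring (0.58) or quantile normalization (0.56). The genes Plk4 (-0.45), which drives centriole duplication, and Anln (-0.42), an actin-binding cytokinesis gene, passed the adjusted p but not the fold limit.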

How the data were processed

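DRIP-seq with the S9.6 antibody was carried out on cultured MuSCs, with 3 libraries per genotype. The input libraries have no values in the table used here. The authors trimmed reads with Trimmomatic 0.39, aligned them to mm10 and the Drosophila genome with STAR 2.7.3a, removed duplicates with Picard 2.21.7, called peaks, merged them into 1 union set and assigned each peak to the gene with the longest overlap. The deposited score is the coverage summed over a peak, scaled to spike-in reads and rounded, so the table holds no reads per peak and counting error was not computed. The study lists read totals for each library, which were not used here. Each Kmt5b sKO library had fewer uniquely mapped reads than every Ctrl library, so depth and genotype cannot be told apart. Because the scores are not raw counts, the count model named in the study's methods was not used.

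Here log2(score + 1) was fitted with limma 3.58.1 in R 4.3.3 (variance trend, Benjamini-Hochberg over 25815 peaks), and fold changes are on that scale. The SE and p of a peak pool its variance with a trend over all peaks. They do not measure the spread of its own libraries alone. A call needed an adjusted p below 0.1 together with more than a 1.5-fold change. In data simulated with independent noise set by the mean score, 81% of changes of 1 log2 unit and 99% of changes of 2 were recovered. In addition, 16 unchanged peaks were called. The simulation held 100 changed peaks of each size and no scale difference between libraries. It therefore does not give the power in the real data. For medians over many peaks, values per library are given without a p, since 3 libraries against 3 cannot give an exact permutation p under 0.1. The study gives separate biological replicates.

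The peaks and gene lists were chosen with earlier results of these data known. Named peaks were the 6 densest, the 8 largest changes in each direction among called peaks with separated libraries, the 2 smallest adjusted p in each list, the longest and farthest reaching, the 3 highest covering convergent ends, and those at the bounds of the rule, of which 2 peaks are not reported here. Sequences are from the GRCm38.p6 assembly and gene models from GENCODE vM21. Peak coordinates are as deposited. Alternatives were another pseudocount, score filter, window, gene length, annotation, scaling, threshold, variance model, replicate block, sex chromosomes and the omission of each library. Members spanning the end, away from other gene starts or single per gene, and convergent ends within length classes, were added after seeing the data.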

Additional observations from a re-analysis of the deposited data

How the results depend on the processing

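The scores are rounded sums over peaks, so short peaks rest on few units and long peaks dominate the totals. Of the 205 higher and 19 lower calls, other pseudocounts (188 to 207, and 17 to 19), a GENCODE end, an adjusted p under 0.05, no variance trend and the inclusion of X and Y kept the counts within 1.5 times. A mean score over 100 gave 71 higher and 8 lower, a window of 1 kb gave 78 and 5, and a window of 5 kb gave 335 and 32. Genes of any length gave 369 higher. The same total per library gave 102 and 70, centring on the median peak 37 and 316, and quantile normalization 42 and 189. Without a fold limit the counts were 389 and 67, and with a fold over 2 they were 57 and 1. The variance of each peak alone gave 6 lower, of which 5 were among the 19. Peaks that span the end gave 101 higher. Without each library in turn the counts ranged from 160 to 259 higher and from 7 to 23 lower, and the 7 lower were without Ctrl replicate 2.

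The replicate numbers did not pair the samples, since deviations of same-numbered libraries correlated at -0.009, 0.011 and -0.027. With the replicate block 204 peaks were higher and 19 lower.

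The level of 3′ end peaks changed by 0.20 on the log2 scale as deposited, by -0.003 with the same total, by -0.26 after centring on the median peak and by -0.10 after quantile normalization. Without each library it ranged from 0.17 to 0.26, and without any 1 of the Kmt5b sKO libraries another split of the remaining 5 gave as large a difference, although the genotypes did not overlap. The shift against internal peaks was -0.03 after quantile normalization, where the genotypes overlapped. It was -0.11 on the log2 scale when each score was taken per kb of its peak. The shift of convergent against other ends was -0.001 after quantile normalization and -0.014 within length classes. Peaks centred past against before the end shifted by -0.014 to -0.042 without each library, and the genotypes were separated without Ctrl replicate 3. The other shifts kept their direction and separation in all settings run.

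Among named peaks, centring on the median peak turned the log2 fold change of Lamc1 (-0.12), Cstf1 (-0.11), Zyx (-0.22), Has3 (-0.38), Eef1a1 (-0.14) and Lamb2 (-0.053). The same total turned Has3 (-0.13) and quantile normalization Cap2 (-0.032). Without single libraries the values ranged from -0.32 to 0.20 for Myom3, -0.10 to 0.12 for Atxn2 and -0.012 to 0.15 for Has3. The cause was not tested.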

Other observations

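On the X chromosome, which the comparison left out, 30 peaks met the same rule. Their median log2 score was 6.61, 7.35 and 6.79 in Ctrl and 6.99, 6.99 and 7.02 in Kmt5b sKO, and the genotypes overlapped, with Ctrl replicate 2 the highest of all 6 libraries.

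In 383 of the 1199 genes with both kinds of peak (31.9%), the 3′ end peak had a higher score per kb than every internal peak of its gene. Among the 3′ end peaks, 131 lay within 1 kb of the start of another protein-coding gene, and 7.63% of these were called higher, beside 12.7% of the other 1538.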
